A study of Mus musculus with 2 samples.

Results

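Barcodes carrying RNA of migrating neuroblasts were picked from 2 single-cell RNA-seq (scRNA-seq) libraries of mouse cerebral cortex by the genes they contained. A barcode, the tag of 1 droplet, was a member when at least 4 of the 8 genes Igfbpl1, Sox11, Cd24a, Dlx1, Dlx2, Sp8, Sp9 and Dcx had at least 1 unique molecular identifier (UMI, 1 counted RNA molecule). Members also had at most 1 UMI of Slc17a7, the vesicular glutamate transporter of cortical excitatory neurons, at most 1 UMI of Sst, the somatostatin gene, and fewer than 3 detected genes among the 6 dividing-cell genes Mki67, Top2a, Knl1, Kif15, Cenpf and Aspm. Of 17653 barcodes with at least 1000 UMIs, at least 500 genes and at most 10% mitochondrial UMIs, 62 were members, 16 of 9540 in the control library and 46 of 8113 in the library of white matter injury (WMI).

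Both libraries came from C57BL/6 mice, 1 library per condition. In the WMI group the right common carotid artery was ligated and the pups then breathed low oxygen, and the ligated cortex was taken, whereas the control library is labelled as ipsilateral cortex of control animals. The labels give surgery at postnatal day 7, sampling at day 14, hypoxia of 1 h and nuclei, whereas the paper's methods give earlier ages, a longer hypoxia and trypsin-dissociated cells. The paper also writes of control and injured sides and of several replicates per group, while 1 library of each was analysed here. With 1 library per condition no test was possible, and all intervals are 95% intervals that cover counting error only and treat barcodes as independent. They are exact for shares, levels and ratios, and approximate for differences between shares. Differences between animals, sexes and batches cannot be told apart from the injury.

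The libraries held 66470806 (control) and 60568639 (WMI) UMIs. Median depth of the barcodes kept was 4727.5 and 5267 UMIs. Their median mitochondrial share was 0.0628% in the control and 0.458% in the WMI library. Xist, the long noncoding RNA of the inactive X chromosome in females, had a UMI in 5 control barcodes (0.0524%) and in 5220 WMI barcodes (64.3%), a difference between the libraries beside that of treatment. The libraries shared 36 barcode sequences, and no member was among them.

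Migrating neuroblasts are young neurons that have left the cell cycle and move from the ventricular and subventricular zones to their final position. In the postnatal rodent forebrain most of them are GABAergic cells bound for the olfactory bulb, and their way runs beneath the cortex. They keep Dcx, a microtubule-binding protein of moving neurons, the sialoglycoprotein Cd24a and the transcription factor Sox11. The homeobox genes Dlx1 and Dlx2 specify GABAergic neurons of the ganglionic eminences, and the zinc finger genes Sp8 and Sp9 act in olfactory bulb interneurons. Igfbpl1 encodes a secreted protein related to insulin-like growth factor binding proteins and is abundant in newborn neurons.

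The rule genes chose the members, so that their levels are given as a description. Dcx was detected in 15 of 16 control and 45 of 46 WMI members. Levels are given as CPM, the UMIs of a gene scaled to a fixed total of UMIs in the same barcodes. In other barcodes Dcx was also frequent (48.4% of control and 46.2% of WMI), at 130.0 and 127 CPM against 302 and 378 CPM in members. Sox11 was found in 15 control and 43 WMI members, and in 19.2% and 26.6% of other barcodes. Igfbpl1 separated the members from the rest more sharply. It was detected in 10 of 16 control and 38 of 46 WMI members (62.5% and 82.6%), against 1.54% and 3.94% of other barcodes. Cd24a was found in 3 control (18.8%) and 20 WMI members (43.5%), against 3.24% and 4.78% of other barcodes.

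Among the transcription factor genes of the GABAergic lineage in the rule, Dlx1 was detected most often, in 10 control and 21 WMI members (62.5% and 45.7%). Sp9 was present in 9 and 18 members (56.2% and 39.1%). Sp8 was present in 4 and 8 members. Dlx2 was rare, with 2 control and 4 WMI members. Of the 46 WMI members, 12 had no UMI of any of Dlx1, Dlx2, Sp8 and Sp9, compared with 1 of the 16 control members, and those 13 met the rule through Igfbpl1, Sox11, Cd24a and Dcx alone. The evidence per barcode was thin. The 8 rule genes together had 4 UMIs in the lowest control member, 6 in the median and 14 in the highest. In WMI members the same sum was 4, 8 and 21 UMIs. In 1 control and 6 WMI members each detected rule gene had exactly 1 UMI.

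**Figure D1:**
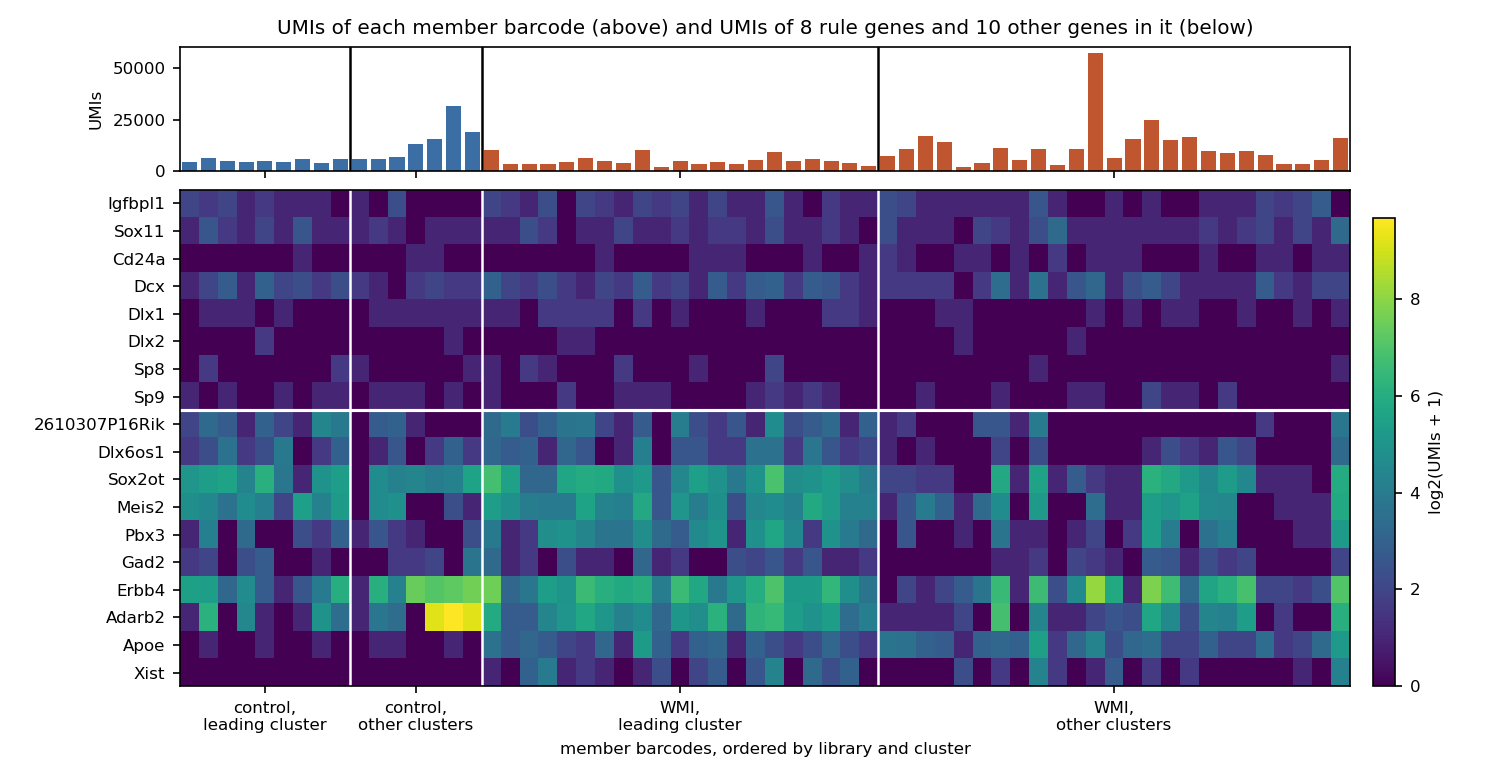
UMIs of each member barcode (bars, upper panel, linear axis) and UMIs of 8 rule genes and 10 other genes (rows, lower panel, log2 of UMIs + 1) in the 62 members (columns), ordered by library and by whether the barcode fell in the cluster that held most members. Members of the leading clusters carry 2610307P16Rik, Sox2ot and Meis2 in nearly every column, the 3 control members with the brightest Adarb2 lie outside it, and Xist is at 0 in all 16 control members.

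Most members lay just inside the threshold. Exactly 4 rule genes were detected in 12 control and 34 WMI members, 5 genes in 4 and 11, and 6 genes in 1 WMI member. Just outside it, with 3 rule genes and all other conditions met, were 70 control and 126 WMI barcodes. Their median depth was 9315 and 8496 UMIs, more than the 5966.5 and 5530 UMIs of barcodes with exactly 4 genes. The other conditions removed 8 control and 15 WMI barcodes for Slc17a7, 2 and 2 for Sst and 5 and 1 for dividing-cell genes (a barcode could fail more than 1), out of 27 and 64 with at least 4 rule genes.

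Members made up 0.168% of control barcodes (0.0959 to 0.272%) and 0.567% of WMI barcodes (0.415 to 0.756%). The WMI share was higher by 0.399 percentage points (0.215 to 0.601). Detection depends on depth, and each barcode was therefore thinned to 2000 UMIs, which left out 753 control and 793 WMI barcodes with fewer. Then 3 of 8787 control barcodes (0.0341%) and 10 of 7320 WMI barcodes (0.137%) met the rule, a difference of 0.102 percentage points (0.00574 to 0.220). At 1000 UMIs no control barcode and 1 WMI barcode remained (the difference of 0.0123 percentage points had an interval from -0.0282 to 0.0687), so that a difference was not detectable at that depth. A control count of 0 allows a share of up to 0.0387% by the exact interval. These are values of 2 libraries and not of the 2 conditions.

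**Figure D2:**
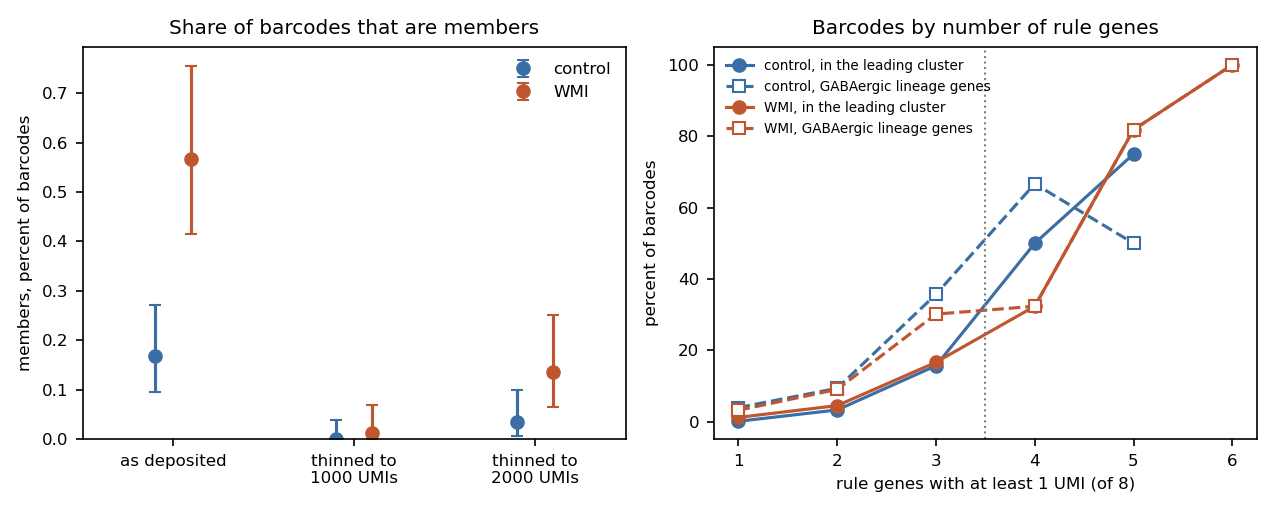
Left, members as percent of barcodes in each library (points) with exact 95% intervals (bars), as deposited and after thinning to 1000 and 2000 UMIs. Right, percent of barcodes that fell in the leading cluster (filled) or had at least 3 of 6 GABAergic lineage genes (open) against the number of rule genes detected, with the dotted line at the threshold of the rule. The WMI share was above the control share as deposited (0.567% and 0.168%) and at 2000 UMIs (0.137% and 0.0341%).

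To see whether the members were 1 kind of cell, each library was clustered on its own without the 16 genes of the rule. The members did not fall together. They were spread over 5 of 24 control and 15 of 27 WMI clusters, and 30 of 62 (48.4%, 35.5 to 61.4%) lay in the cluster of each library that held most of them. The leading control cluster had 63 barcodes with 9 members, and the leading WMI cluster had 108 barcodes with 21 members. Both were led by the long noncoding RNAs 2610307P16Rik, Dlx6os1 and Sox2ot, by the homeobox gene Meis2 and by the secreted protein gene Smoc1, and in the WMI cluster also by Pbx3, a cofactor of homeobox proteins, and Gad2, a GABA-synthesising enzyme. Dlx1as, an antisense RNA of the rule gene Dlx1, was also among the leading genes of both and was not among the 16 genes left out. In the control cluster 10 of 63 barcodes (15.9%) were dividing, and in the WMI cluster none of 108 was. That call counts detected genes and so depends on depth, which had medians of 4300 (control) and 3420 UMIs (WMI) in these clusters. Members had been required not to divide, and Mki67 had 0 UMIs in all 62. In the control cluster the 54 barcodes that were not members had 24 UMIs of Mki67.

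The other 32 members were spread over other clusters, many led by genes of other cells. In the control library, 3 lay in a cluster led by Chat, Adarb2 and Prox1, the last 2 being genes of interneurons from the caudal ganglionic eminence. Another 2 control members lay in a cluster led by Cspg4 and Pdgfra, genes of oligodendrocyte precursor cells. These 2 still carried genes that led the leading cluster, with 6 and 7 UMIs of 2610307P16Rik and 24 and 28 UMIs of Meis2. A further 2 clusters held 1 control member each. In the WMI library, 5 lay in a cluster led by Adora2a, Drd2 and Penk, genes of striatal projection neurons. A further 4 WMI members lay in a cluster of 61 barcodes led by Tspan18, Prox1, Sema3c and Zbtb20, and these 4 had no UMI of Gad1, Gad2 or Dlx6os1. Finally, 3 lay in a cluster led by Lhx6, a gene of medial interneurons, 2 each in a cluster led by haemoglobin genes and in one led by ferritin and ribosomal protein genes, and 1 each in 9 further clusters, 1 of them led by the interneuron genes Adarb2 and Vip together with Dlx6os1 and Dlx1as. Members outside the leading clusters were deeper, with a median of 13017 UMIs in the control and 9773 in the WMI library, against 4718 and 4615 UMIs within. Predicted doublets (2 cells under 1 barcode) numbered 5 of 46 WMI members, all of them outside the leading cluster, and 0 of 16 control members. The leading clusters thus held 30 of the 62. They were picked for holding most members and were led in part by GABAergic and olfactory-bound genes, so that they cannot settle the name migrating neuroblast. The barcodes are called members throughout.

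The lineage was read from 6 GABAergic genes that the rule did not use, Dlx6os1, Gad1 and Gad2 among them. At least 3 of them were detected in 10 of 16 control members (62.5%, 35.4 to 84.8%) and in 21 of 46 WMI members (45.7%, 30.9 to 61.0%), against 3.39% and 3.27% of other barcodes. The difference between the libraries was -16.8 percentage points, with an interval (-43.6 to 14.3) that held 0. It was -38.7 (-65.9 to -2.94) with barcodes that had a UMI of Xist left out, from 16 control and 21 WMI members. That step removed no control member, but 15 of 21 WMI members of the leading cluster and 10 of 25 outside it. With 5 rule genes, in 4 control and 12 WMI members, the sign of the difference turned, to 33.3 (-20.3 to 79.0). With members thinned to 1000 UMIs it was 6.52 (-14.7 to 17.9), from 0 of 16 control and 3 of 46 WMI members. A control count of 0 cannot give a lower WMI share, so that this sign decides nothing. In the leading clusters the share was 66.7% in both libraries, 6 of 9 and 14 of 21 members. Outside them it was 4 of 7 control and 7 of 25 WMI members. Glutamatergic genes (at least 3 of 6, Neurod2 and Slc17a6 among them) were found in 0 of 16 control members, which allows a share of up to 20.6%, and in 2 of 46 WMI members, both outside the leading cluster, against 7.94% and 6.59% of other barcodes.

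By the share of members with a UMI, single GABAergic genes did not all run the same way between the libraries. Gad1, the other GABA-synthesising enzyme, was detected in 14 of 16 control and 22 of 46 WMI members (87.5% and 47.8%). Gad2 was found in 9 control and 30 WMI members (56.2% and 65.2%). By level Gad2 was not higher in WMI members, at 245.7 CPM in control and 213.8 CPM in WMI members (log2 ratio -0.20, -0.78 to 0.41). Free RNA in droplets gives UMIs in cells that do not express a gene, and in microglial barcodes (at least 5 of 7 microglial genes with 2 UMIs each) Gad1 was found in 18.6% of 43 control and 7.34% of 286 WMI barcodes, at median depths of 4340 and 4383 UMIs. Igfbpl1 was found in 9.30% and 1.05% of the same microglial barcodes. Dlx5 and Dlx6 were near the limit of detection, with 5 and 1 UMIs in WMI members and none in control members.

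The transcript Dlx6os1, an antisense RNA of the Dlx5 and Dlx6 locus (GRCm38 chromosome 6, 6820189 to 6871592, minus strand), was the most abundant gene of the list. It had a UMI in 13 of 16 control and 30 of 46 WMI members. In control members it ranged from 0 UMIs over a median of 2 to 14, and in WMI members from 0 over 2 to 17. Its promoter and that of the rule gene Dcx are shown, since both hold the letters TAATTA, a core that homeodomain proteins such as those of the Dlx family recognise. Sequences are from RefSeq on GRCm38.p6, run 5′ to 3′ on the strand of the gene from 250 bases before to 50 after an annotated start, and have TAATTA and TAATTG (read on either strand) in capitals. The first is the minus strand of chr6:6861634-6861933 at 1 of 2 starts of Dlx6os1, and the second the minus strand of chrX:143933075-143933374 at 1 of 2 overlapping starts of Dcx.
Dlx6os1: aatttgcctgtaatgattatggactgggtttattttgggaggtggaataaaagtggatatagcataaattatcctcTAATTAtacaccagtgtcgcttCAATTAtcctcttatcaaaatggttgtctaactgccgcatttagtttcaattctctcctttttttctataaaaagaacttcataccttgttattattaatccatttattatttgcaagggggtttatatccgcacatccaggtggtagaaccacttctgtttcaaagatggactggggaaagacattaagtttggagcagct
Dcx: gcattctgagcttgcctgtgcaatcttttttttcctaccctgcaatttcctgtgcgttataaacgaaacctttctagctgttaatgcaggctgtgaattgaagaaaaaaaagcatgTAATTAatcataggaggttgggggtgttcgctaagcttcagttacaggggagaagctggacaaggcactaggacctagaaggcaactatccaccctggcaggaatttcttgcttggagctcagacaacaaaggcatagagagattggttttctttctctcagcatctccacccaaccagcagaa
Of the 8 rule genes 6 had promoters in the table, and 4 of their 9 windows held 1 of the motifs, those of Dcx, Sp8 and Sp9. The 2 windows of Dcx overlap and hold the same match, so that 3 of 6 genes had one. The 20 genes highest in members over other barcodes include Dlx6os1, and 14 of them had promoters. Of their 23 windows 5 (21.7%) held a motif, in 4 genes. Over all 32851 windows the share was 12.4%. A match is a description of the letters and not a binding site.

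Beyond the rule, a small set of genes was higher in the members than in all other barcodes, mainly in members of the leading clusters. These levels are not particular to members, since in the other barcodes of the leading clusters the summed GABAergic list was at 1843 CPM (control) and 1638 CPM (WMI), against 913 and 778 CPM in members, and the summed olfactory-bound list at 6558 and 7243 CPM, against 2731 and 4177 CPM. Among 882 genes with at least 100 UMIs in members and not in the rule, 8 (0.907%) were at least 4-fold higher in members than in all other barcodes in both libraries. They were 2610307P16Rik, Dlx6os1, Sox2ot, Meis2, Pbx3, Gad2, Erbb4 and Parm1. The noncoding RNA 2610307P16Rik was highest, with a log2 ratio to other barcodes of 4.998 in the control and 4.29 in the WMI library. It had between 0 and 20 UMIs in control members (median 3) and between 0 and 25 in WMI members (median 1.5). All 9 control and 20 of 21 WMI members of the leading clusters had it, against 3 of 7 and 8 of 25 members outside. The clusters were formed in part by these genes, so that levels inside and outside them are a description. Meis2, a homeobox gene of olfactory bulb and striatal lineages, was higher by 2.74 and 2.61 on the log2 scale. Control members had 0 to 43 UMIs of Meis2 with a median of 17.5, and WMI members 0 to 58 with a median of 16.5, so that the libraries overlapped. Its level was 4563 CPM in control members of the leading cluster against 582 CPM in those outside, and 5058 against 1127 CPM in WMI members. Dlx6os1 was at 1034 against 174 and at 1078 against 111 CPM, and Parm1 at 450 against 112 and at 719 against 47.2 CPM. Erbb4 differed from these in the control library, at 4698 against 7473 CPM.

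Sox2ot, a noncoding RNA that spans the Sox2 locus, reached 3.12 and 2.66 on the same scale. Erbb4, a neuregulin receptor that guides tangentially migrating interneurons, reached 2.32 and 2.25 and was found in 16 of 16 control and 45 of 46 WMI members. Pbx3 reached 2.42 and 3.55. Gad2 reached 2.33 and 2.40, and Parm1, a mucin-like membrane protein gene, 2.44 and 2.24. The next genes in order were C130073E24Rik, Adarb2, the transcription factor genes Nfib and Zbtb20, the synaptic vesicle gene Synpr, the adhesion gene Sdk2 and the guidance receptor gene Robo2, whose lower value over the libraries lay between 1.83 and 1.44. Nol4, Nrxn3, Tiam2, Ubash3b and Spon1 closed the 20 highest, and the last, Spon1, was at 1.16.

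**Figure D3:**
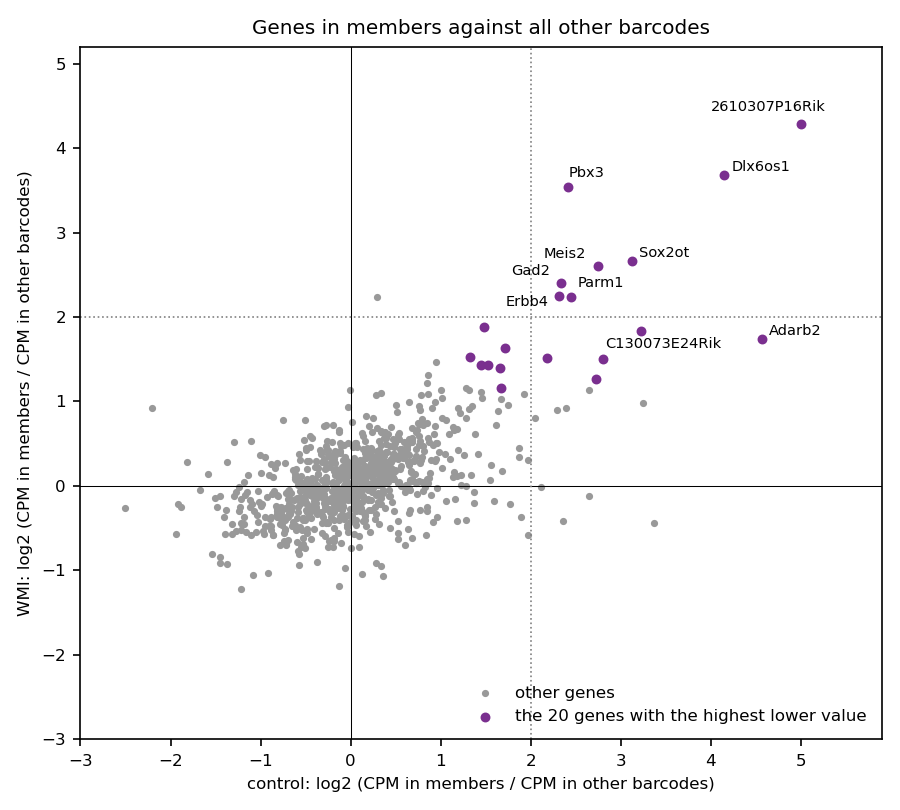
Log2 ratio of CPM in members to CPM in all other barcodes for each gene with at least 100 UMIs in members and a UMI in both libraries, control on the horizontal and WMI on the vertical axis (dotted lines at a 4-fold ratio). The rule genes are left out, and 2610307P16Rik lies farthest out at 4.998 and 4.29.

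Lists of genes set the members beside other neurons. For each list the UMIs of all its genes were summed. The olfactory-bound list (Meis2, Pbx3, Tshz1, Etv1, Prokr2, Zic1, Pax6 and Tiam2) was 2.29 higher on the log2 scale in control members than in other control barcodes (2.14 to 2.44), and 2.54 higher in WMI members (2.47 to 2.61). Its most abundant gene was Meis2, and Zic1 had no UMI in control members. Tshz1, a zinc finger gene of olfactory bulb neurons, was found in 5 control (31.2%) and 28 WMI members (60.9%), against 11.99% and 18.8% of other barcodes. Pax6 was found in 6 control (37.5%) and 10 WMI members (21.7%), against 3.32% and 4.92%. The GABAergic lineage list was 3.04 and 2.95 higher, and the glutamatergic list -1.43 and -0.89. Both were partly set by the rule, which asked for Dlx and Sp genes and limited Slc17a7. The summed levels of astrocyte and oligodendrocyte lineage lists were lower in members than in other barcodes in both libraries (-1.12 and -0.99 for astrocytes, -0.98 and -0.92 for the oligodendrocyte lineage). Without 3 deep control members, those of the cluster led by Chat and Adarb2, the control value of the oligodendrocyte list was -0.29 (-1.02 to 0.36), and in the leading cluster it was 0.05 (-0.82 to 0.80), whereas that of astrocytes was -0.88 and -0.76. The control value of the glutamatergic list was -0.66 (-1.35 to -0.04) without the 3 and -0.46 (-1.33 to 0.28) in the leading cluster.

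Genes of the moving cell itself set the members apart less. The list of 28 microtubule and cytoskeleton genes of migrating neurons, without Dcx, was at -0.10 (-0.21 to 0.02) in control and 0.20 (0.14 to 0.27) in WMI members relative to other barcodes. Without the 3 control members of the Adarb2-led cluster the control value turned to 0.16 (0.02 to 0.31), so that the difference in sign between the libraries rests on those 3. Within it, Dclk2, a doublecortin-like kinase, was higher in both (1.67 and 1.03), and Mapt, the tau gene of axons, was at -0.88 and -0.10. The 14 adhesion and polysialic acid genes were at -0.02 and 0.13, and the control value turned to 0.21 (0.05 to 0.35) without the 3. The 33 guidance receptors and ligands were at 0.19 and 0.32, and Erbb4 alone held 941 of their 3854 control and 2427 of their 11181 WMI UMIs. The 14 mature neuron genes were lower, at -0.37 (-0.47 to -0.27) and -0.22 (-0.28 to -0.17). GABA-A receptor subunits were at -0.12 and -0.15, and glutamate receptor subunits at -0.08 and -0.07. In control members without the 3, mature neuron genes were at -0.56, GABA-A receptor subunits at -0.49 (-0.67 to -0.31) and glutamate receptor subunits at -0.13. In control members of the leading cluster these lists were lower still, at -0.74, -0.94 and -0.52. Of the SoxC and Dlx relatives outside the rule, the Sox11 paralogue Sox4 was found in 6 control and 8 WMI members (37.5% and 17.4%), against 10.8% and 14.9% of other barcodes. Gsx2, a gene of lateral ganglionic eminence progenitors, had no UMI in any member. Neural stem and intermediate cell genes (at least 3 of 8) were detected in 0 of 16 control and 5 of 46 WMI members, against 2.37% and 4.45% of other barcodes.

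**Figure D4:**
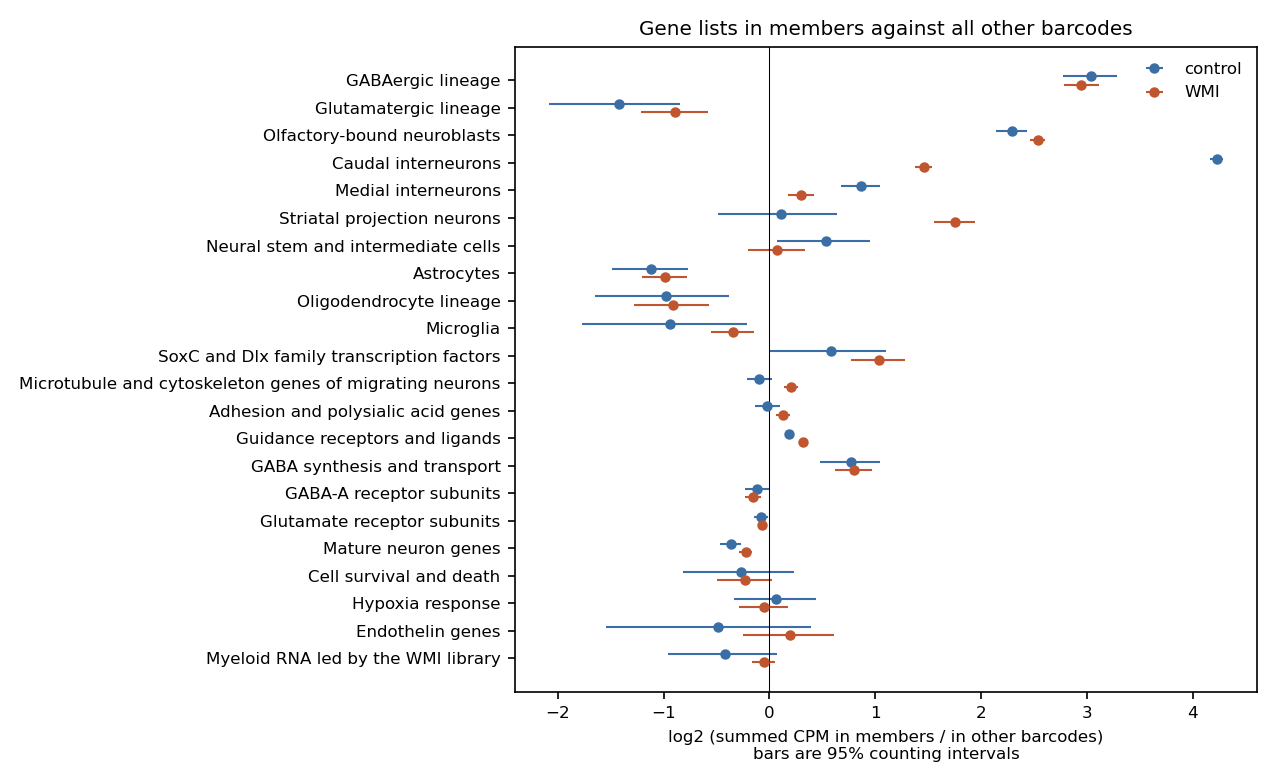
Log2 ratio of the summed CPM of each gene list in members to that in all other barcodes, in the control (blue) and WMI (orange) library, with 95% counting intervals. GABAergic lineage (3.04 and 2.95) and olfactory-bound genes (2.29 and 2.54) lie far to the right in both libraries, whereas caudal interneuron genes (4.23 and 1.46) and striatal genes (0.11 and 1.75) differ between them.

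The control values in the plot of lists rest in part on the 3 control members of the Adarb2-led cluster, which were deep. Without them the caudal list was at 1.42, the striatal list at 0.85, the GABAergic list at 3.53 and the olfactory-bound list at 3.12.

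Other neurons were taken by their own genes for comparison. Igfbpl1 chose members, and its shares elsewhere are a description. It was found in 3.20% of 1187 control and 6.69% of 971 WMI caudal interneuron barcodes (at least 2 UMIs of Adarb2 and 1 of Gad1 or Gad2). It was found in 1.14% of 175 control and 6.64% of 226 WMI striatal barcodes (at least 3 of 11 striatal genes), and in 1.46% and 3.92% of excitatory barcodes (at least 2 UMIs of Slc17a7). In the microglial barcodes the share was 9.30% (4 of 43) in the control and 1.05% (3 of 286) in the WMI library, so that the control shares of these neurons lay below it and the WMI shares above it. Those classes were deeper than the members, with medians of 7316 and 7606 UMIs (caudal) and 11037 and 10902 UMIs (striatal). At least 3 GABAergic lineage genes were found in 19.5% and 21.2% of caudal interneuron barcodes and in 21 of 175 and 30 of 226 striatal barcodes, below the shares in members (62.5% and 45.7%). In medial interneuron barcodes (at least 2 UMIs of Lhx6, 1 of Gad1 or Gad2 and at most 1 of Sst) they were found in 26 of 58 (44.8%) in the control and in 15 of 22 (68.2%) in the WMI library, the latter above the share in WMI members. Medial barcodes had medians of 11763 (control) and 13818 UMIs (WMI), also deeper than the members, and detection depends on depth. Gad1 and Gad2 helped to define both interneuron classes.

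Between the libraries, members were compared by the UMIs summed over them, 142447 in the control and 402228 in the WMI library. In such sums fewer cells of a type and less RNA per cell cannot be told apart. Of 884 genes with at least 100 UMIs, 52 (5.88%) were at least 2-fold higher in WMI members and 45 (5.09%) at least 2-fold lower. The balance depended on the members taken, with 50 higher and 20 lower of 783 genes without the 3 control members described next, and 70 higher and 15 lower of 3709 genes when 3 rule genes sufficed. The median log2 ratio was 0.04, and 90% of genes lay between -1.004 and 1.04.

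Most control UMIs of each of the 10 lowest genes came from 3 barcodes. Adarb2, an RNA-editing enzyme relative that marks caudal interneurons, had 2145 UMIs in control members and 1082 in WMI members, a log2 ratio of -2.48 (-2.59 to -2.38). The 3 control members of the cluster led by Chat and Adarb2 held 1987 of these 2145 UMIs (92.6%), and 46.5% of all UMIs of control members. In the other 13 control members Adarb2 had 0 to 71 UMIs with a median of 1, and in WMI members 0 to 111 with a median of 17.5. Without those 3 barcodes the ratio was 0.38 (0.13 to 0.63), and within the leading clusters it was 1.14 (0.87 to 1.42). Sdk1, an adhesion gene, was at -3.55 over all members and at 1.06 (-0.14 to 2.56) without the 3. Cntn4 moved from -2.75 to -0.60 and Cntnap2, another contactin-related adhesion gene, from -1.90 to -1.10. Kcnip1, Grik1, Npas3, Nr3c2, Limch1 and Zfp536 were the other low genes, between -2.43 and -1.83. Without the 3 barcodes Nr3c2 turned to 2.12 (0.52 to 4.44) and Limch1 to 0.01, Grik1 was at -1.37 (-1.90 to -0.81), and Kcnip1, Npas3 and Zfp536 were between -0.81 and -0.64. In the leading clusters the interval of each of the 10 held 0, except for Adarb2.

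Among the 10 highest genes were myeloid and mitochondrial ones. Apoe, the apolipoprotein that astrocytes and activated myeloid cells secrete, had the highest ratio of the genes with a UMI in both libraries. Xist has only a lower bound and cannot be ranked against Apoe, which had 6 UMIs in control members and 371 in WMI members (4.45, 3.32 to 5.91). No control member had more than 1 UMI, and every WMI member had at least 1 (median 7, highest 44). Ctsd, a lysosomal protease, had 2 and 115 UMIs (4.35). Both were also higher in other WMI barcodes (3.39 and 3.10), and the myeloid list that they belong to, which was chosen from these libraries, was at 1783 CPM in WMI members and 1851 CPM in other WMI barcodes, against 231.7 and 310.3 CPM in the control library. At least 3 of 7 microglial genes were detected in 1 of 16 control members (6.25%) and 18 of 46 WMI members (39.1%), against 8.22% and 46.7% of other barcodes. The microglial list was summed to 105.3 and 509.7 CPM, its most abundant gene in control members was Cx3cr1 with 5 UMIs, and the defining genes Csf1r and Tyrobp were at 0 in control members. The part of RNA from other cells in the ratios was not tested. The mitochondrial genes mt-Nd3, mt-Nd1 and mt-Cytb were at 3.34, 2.45 and 2.36 in members and at 2.75, 2.17 and 2.31 in other barcodes. Mitochondrial UMIs made up 0.185% of all UMIs in control and 0.832% in WMI members.

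Xist had no UMI in the 16 control members and had 142 UMIs in 25 of 46 WMI members. At a floor of 3 UMIs over all control members its log2 ratio was at least 4.07, and the lower limit of its exact interval was 3.75. Htr1f, a serotonin receptor gene, had 5 and 100 UMIs (2.82), and 1 WMI member held 57 of the 100. Slit3, a repellent guidance ligand, had 17 and 297 UMIs (2.63, 1.93 to 3.43). Its level was 738.4 CPM in WMI members against 882 CPM in other WMI barcodes, and 119.3 against 678.6 CPM in the control library. Ntng1 and 6530403H02Rik were at 2.54 and 2.53 and, like Htr1f, had intervals that held 0 in the leading clusters, where Slit3 was at 1.61 (0.10 to 3.58).

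**Figure D5:**
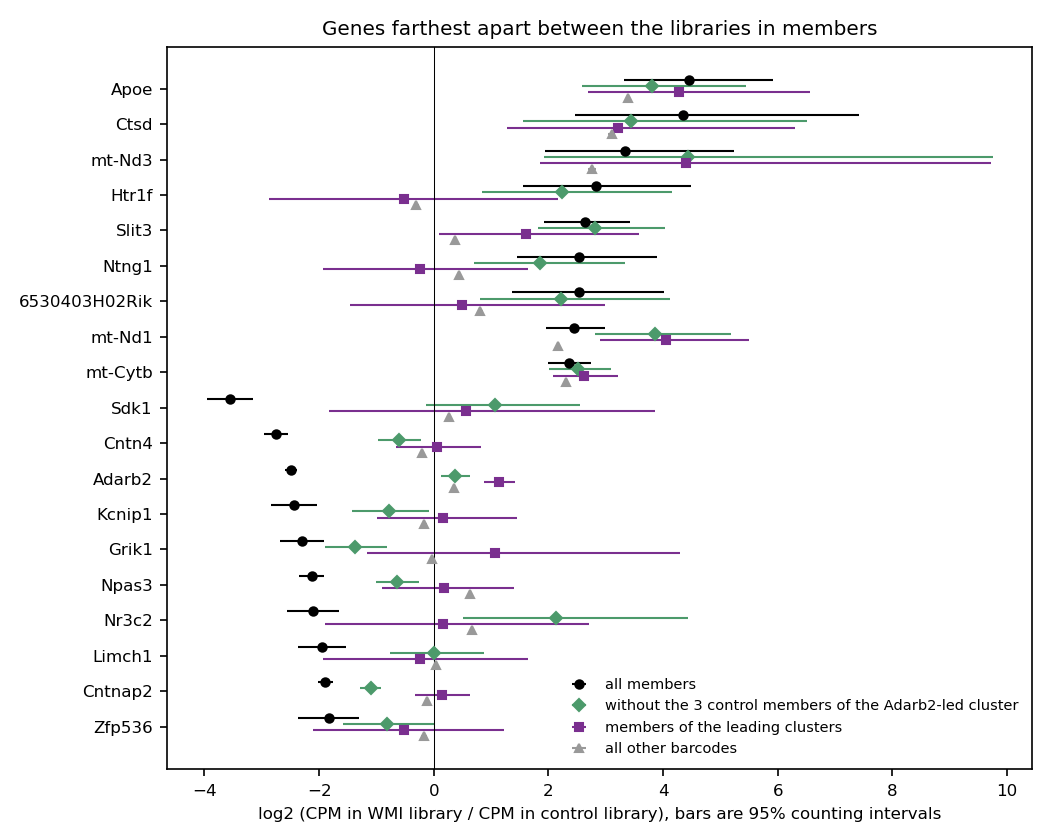
Log2 ratio of CPM in the WMI to the control library for 9 of the 10 highest genes (Xist is left out because its control count is 0) and the 10 lowest in members, with 95% counting intervals. Values of all members (black), without the 3 control members of the Adarb2-led cluster (green), of members of the leading clusters (purple) and of all other barcodes (grey) are shown. The 10 lowest genes move towards or past 0 in the green and purple points, whereas Apoe, Ctsd and the mitochondrial genes stay above 2 in each.

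Within the leading clusters several of the shared genes had close levels in the libraries, with 1439 and 1418 CPM for 2610307P16Rik (a log2 ratio of -0.02, -0.45 to 0.42), 1034 and 1078 CPM for Dlx6os1, and 4563 and 5058 CPM for Meis2 (0.15, -0.09 to 0.39). Over all members the ratios were -0.18 (-0.57 to 0.22) for 2610307P16Rik, -0.28 (-0.71 to 0.17) for Dlx6os1 and 0.24 (0.04 to 0.45) for Meis2. Without the 3 control members of the Adarb2-led cluster these genes were lower in WMI members, at -1.09 (-1.47 to -0.69) for 2610307P16Rik, -0.90 for Dlx6os1 and -0.63 for Meis2. Robo2, a Slit receptor, was at 4495 and 5408 CPM in the leading clusters (0.27, 0.03 to 0.51), at -0.31 (-0.49 to -0.14) over all members and at -0.66 (-0.86 to -0.46) without the 3. Pbx3 was apart, with 40 UMIs in 6 of 9 control members and 370 UMIs in 21 of 21 WMI members (1.96, 1.49 to 2.47). Of those 40 UMIs 1 control member held 17. Over all members the ratio of Pbx3 was 1.80 (1.39 to 2.24), and without the 3 it was 1.01 (0.59 to 1.46). Other WMI barcodes were also higher in Pbx3, since its ratios of members to other barcodes, 2.42 (control) and 3.55 (WMI), were less than 1.80 apart. Erbb4 was at 1.21 (0.99 to 1.43) in the leading clusters and at -0.13 over all members. C130073E24Rik, a noncoding transcript, and Ubash3b, a signalling phosphatase gene, were also higher in the leading clusters (2.59, 1.41 to 4.08 and 2.58, 1.15 to 4.51), from 6 and 4 control UMIs. Of the 86 UMIs of C130073E24Rik in WMI members of the leading cluster, 1 member held 46. Over all members C130073E24Rik was at 0.49 (-0.06 to 1.08), and Ubash3b turned to -1.13 (-1.55 to -0.71). Without the 3 control members they were at 1.87 (0.79 to 3.21) and 0.82 (-0.04 to 1.82). Zbtb20 was at -0.64 (-0.92 to -0.35) in the leading clusters and, with the opposite sign, at 0.51 (0.30 to 0.73) over all members, but at -0.32 (-0.54 to -0.10) without the 3. The counting intervals hold for these barcodes of 2 libraries, and the spread between animals is unknown.

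Lists of genes were compared in the same way, beside the 5.88% of all 884 genes at least 2-fold higher and the 5.09% at least 2-fold lower. With so few genes per list, the counts are not set apart from those shares. Of 3 olfactory-bound genes with at least 100 UMIs, 1 was at least 2-fold higher in WMI members (Pbx3), and the summed list was at 0.61 (0.45 to 0.78), against 0.37 in other barcodes. Without the 3 control members of the Adarb2-led cluster the sign of that sum turned, to -0.21 (-0.38 to -0.05), whereas in the leading clusters it was 0.63 (0.44 to 0.82). The caudal list was at -2.45 and, in other barcodes, at 0.32. Its direction was set by the same 3 barcodes, since it was at 0.36 (0.13 to 0.60) without them and at 1.06 (0.80 to 1.32) in the leading clusters. The striatal list had 28 control and 219 WMI UMIs (1.47, 0.90 to 2.09, and 0.73, 0.13 to 1.39, without the 3), of which Foxp2 gave 23 and 153, and its 5 members with at least 3 striatal genes all lay outside the leading WMI cluster. Among 9 microtubule and cytoskeleton genes, 1 (Tmsb4x, an actin-binding peptide gene that myeloid cells also express) was 2-fold higher and none lower, with a median of 0.10, beside 0.04 for all genes. Of 6 adhesion genes 1 (Ncam2, at 1.16) and of 18 guidance genes 2 (Slit3 and Efna5) were at least 2-fold higher. Among 11 glutamate receptor subunits 1 (Grik1) was lower. The 8 mature neuron genes had a median of -0.10 and none was 2-fold apart. No gene of the hypoxia response, cell survival or endothelin lists reached 100 UMIs. Ednrb, the endothelin receptor B gene, was found in 2 of 16 control and 7 of 46 WMI members (12.5% and 15.2%), against 9.11% and 13.3% of other barcodes, and Edn1 was at 0 in members.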

How the data were processed

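Single-cell RNA-seq of 1 control and 1 WMI library of mouse cortex was used. The values are raw UMI counts in matrices as deposited, with Cell Ranger 6.1.1 named in the file headers and no normalisation by the authors. The submitters' processing notes name Seurat and the build mm9, whereas all 55450 listed genes matched the GRCm38 annotation, whose coordinates are given.

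Barcodes with at least 1000 UMIs, at least 500 genes and at most 10% mitochondrial UMIs were kept. Members and gene lists were chosen with earlier results of these data known. Doublets were predicted from simulated pairs (2 per barcode, 30 neighbours, a rate of 0.8% per 1000 barcodes) and kept. Each library was clustered with the Leiden method (2000 variable genes, 30 components, 20 neighbours, resolution 1) without the 16 genes of the rule.

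UMIs were summed over barcodes of a library. Intervals (95%) are exact for shares (Clopper-Pearson), sums (Poisson) and ratios (conditional binomial), approximate for differences between shares (limits of both shares combined as the root of summed squares), and cover counting error only. With 1 library per condition no test was run. Named genes were the 20 highest in members over other barcodes by the lower value of both libraries, and the 10 highest and 10 lowest between libraries, each with at least 100 UMIs in members. Other named genes belong to 27 gene lists and were picked within them after their values were seen. The calculations were tested on simulated data. Python 3.11.15, numpy 2.4.6, scipy 1.17.1, scikit-learn 1.9.0 and leidenalg 0.10.2 were used. In all, 59 alternatives were tried, 13 of them chosen after seeing the data. List sums were also recomputed, after seeing the data, without the 3 control members of the Adarb2-led cluster and in the leading clusters. Some genes of the lists are not reported here by name.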

Additional observations from a re-analysis of the deposited data

How the results depend on the processing

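Each quantity below was recomputed with 1 choice changed at a time. The cause of a change was not tested unless the alternative itself removes genes or barcodes. The difference in member share (0.399 percentage points) was above 0 under all 9 alternatives, but not each of them could have turned it. Leaving out the 3 control members of the Adarb2-led cluster (0.431) could only raise it. After thinning to 1000 UMIs no control member was left, so that it could not fall below 0, and it was not detectable. There it was 0.0123, with an interval (-0.0282 to 0.0687) that held 0. The difference was 1.22 with 3 rule genes, 0.106 with 5, 0.102 after thinning to 2000 UMIs and 0.671 with all barcodes of the leading clusters in place of members. Xist barcodes were 25 of 46 WMI members and 0 of 16 control members. Without them the difference in the share with GABAergic lineage genes (-16.8 points) was -38.7 (-65.9 to -2.94). It turned to 33.3 (-20.3 to 79.0) with 5 rule genes, from 4 control and 12 WMI members. When members were thinned to 1000 UMIs it was 6.52 (-14.7 to 17.9). At that depth 0 control members had these genes, so that the sign decides nothing. The 97 genes at least 2-fold apart between libraries (52 higher, 45 lower) of 884 tested became 213 of 1916 with a floor of 50 UMIs, 53 of 406 with 200, 19 of 184 in members of the leading clusters only and 56 of 884 when each member was weighted equally, the first 3 with a changed number of genes tested. The split was 50 higher and 20 lower of 783 without the 3 control members of the Adarb2-led cluster and 70 and 15 of 3709 with 3 rule genes. Scaling to a median of 0 gave 46 higher and 48 lower, and scaling without mitochondrial and ribosomal protein genes 59 and 44. The 8 of 882 genes at least 4-fold higher in members in both libraries became 13 of 3704 with 3 rule genes, 5 of 243 with 5, 3 of 488 without barcodes with a UMI of Xist and 17 of 183 in the leading clusters only. The median ratio of 9 microtubule and cytoskeleton genes (0.10) was 0.30 without Xist barcodes (4 genes) and 0.49 with a floor of 200 UMIs (3 genes). It was -0.0042 without the 3 control members of the Adarb2-led cluster (8 genes). With 5 rule genes (0.48) and in the leading clusters (0.65) only 1 gene was left, so that these values are no medians of the list. The summed list was at 0.30 (0.16 to 0.43) over all members, 0.29 (0.07 to 0.50) in the leading clusters and 0.03 (-0.12 to 0.20) without the 3. The share of members in the leading clusters (48.4%) stayed between 48.4% and 54.8% under 4 alternatives. Equal weighting and leaving out the Adarb2-led members were among the alternatives chosen after seeing the data. No paired analysis was possible because each condition had 1 library.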
